A study of Mus musculus with 4 samples.

Results

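On a gene expression array, most probe sets are meant to read 1 gene, but where genes are near copies of each other 1 probe set can match several. Of the 34760 probe sets in the deposited table, 1321 carried more than 1 gene symbol in the probe-to-gene table and are described here, while 21640 carried 1 symbol and 11799 carried none. Where a probe set lists different genes, its value cannot be assigned to 1 of them.

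Epithelium was taken from the intestine of C57BL/6 mice that the labels call adult. Ultraviolet light fixed RNA to the proteins bound to it, antibodies pulled those proteins down, and the RNA was labelled and hybridized to Affymetrix MoGene ST arrays. The method goes by the name CLIP-chip. The 4 arrays held input RNA that was not immunoprecipitated, RNA recovered with a control IgG, RNA recovered with an antibody to Msi1, and RNA recovered with an hnRNP antibody whose target protein the labels do not specify further. Each array held 100 ng of RNA combined from 2 experiments, so each group has 1 array: there is no replicate error, no test was possible, and every difference below compares 2 arrays rather than 2 conditions. With so few arrays, the precision of each value is limited.

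Msi1 (Musashi-1) is an RNA-binding protein known from neural and intestinal stem cells, where it binds messenger RNAs mainly in their untranslated regions and regulates translation. The hnRNP proteins bind nuclear RNA and take part in splicing and transport, and IgG recovers RNA that sticks without a specific antibody. Genes become hard to tell apart on an array in several ways. Tandem duplication makes clusters such as olfactory receptors, defensins and histones. Reverse transcription of abundant messages scatters processed pseudogenes over the genome, above all of ribosomal protein genes and glycolytic enzymes. Some small RNAs lie inside the transcripts of host genes.

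The 1321 probe sets listed 2020 different symbols, of which 2019 matched a RefSeq gene, in 786 different combinations. Of these probe sets, 653 (49.4%) had 2 symbols, 342 had 3 or 4, 326 had 5 or more and 100 had 10 or more. The longest list held 20 predicted genes and clones, including Gm3411 and Gm3696. A list of 19 symbols named histones, mostly of the H2A family. A predicted gene or clone stood in the lists of 634 probe sets, and a symbol ending in ps, the mark of a pseudogene, in 102. In 14 probe sets the symbols came down to 1 current gene, and 8 held the same symbol entered more than once and no other.

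By position in the RefSeq annotation of GRCm38.p6, used only for which genes are neighbours, 484 probe sets (36.6%) listed genes within 1 Mb of each other without overlap. Genes on different chromosomes were listed by 462 (35.0%), and genes further apart on 1 chromosome by 240 (18.2%). Overlapping genes on the same strand were listed by 56, overlapping genes whose strand is not in the table by 64 and overlapping genes on opposite strands by 1. Chromosome 7 held all genes of 118 probe sets, more than any other chromosome, followed by chromosome 14 with 76 and chromosome X with 74, and chromosome Y held 38.

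The largest classes, by symbol, were ribosomal protein genes with 201 probe sets, chemosensory receptors with 153, germline and X- or Y-linked multicopy families with 142 and other families sharing a symbol stem with 141. Then came named genes listed with predicted genes or clones (110), predicted genes only (99), named genes of unlike symbols (92), copies of translation, glycolysis and other housekeeping genes (91), and small RNAs with the genes listed beside them (64, of which 34 list overlapping genes). Antigen receptor segments had 45, chemokine, interferon and other immune families 38, zinc finger genes 35, histones 33, secreted and structural protein families 30, detoxification enzymes 15, serpins and proteases 14, MHC genes 8, defensins 6, UDP glucuronosyltransferases 3 and clustered protocadherins 1.

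The microRNA lists are shown first because several attach a small RNA to an abundant message. Of 67 microRNA symbols in 37 probe sets, 37 symbols had a sequence in RefSeq (GRCm38.p6), giving 54 mature microRNAs with 47 different seeds. Below, each mature sequence is printed 5′ to 3′ with its seed, bases 2 to 8, in capitals. The first 5 share a probe set with a protein-coding gene (Eef1a1, Rpl37a, Akt1s1, Ftl1 and Dnaja1 in that order), and the last 3 with a non-coding transcript.
miR-703: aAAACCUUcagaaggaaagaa
miR-682: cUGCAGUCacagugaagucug
miR-707: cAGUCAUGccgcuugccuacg
miR-692: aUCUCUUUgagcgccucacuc
miR-207: gCUUCUCCuggcucuccucccuc
let-7b-5p: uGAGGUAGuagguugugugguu
let-7c-5p: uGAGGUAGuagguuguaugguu
miR-351-5p: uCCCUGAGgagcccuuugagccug
The let-7b and let-7c sequences share the seed GAGGUAG. Other shared seeds among the listed microRNAs were AGCACCA in miR-29b-3p and miR-29c-3p, and AUUUAGA in the 5p arms of miR-465a, miR-465b and miR-465c. The values below belong to the whole probe set and do not measure the mature microRNA.

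Alpha defensins are antimicrobial peptides secreted by Paneth cells at the base of the intestinal crypts, and their cluster shows how alike neighbouring copies can be. In RefSeq (GRCm38.p6, plus strand), the promoter of Defa21 spans chr8:21025295-21025594 and that of Defa23 spans chr8:21054790-21055089, from 250 bases before to 50 bases after the gene start. Both genes stand in the list of 1 probe set, and both promoters are printed with each TATAAA in capitals.
Defa21: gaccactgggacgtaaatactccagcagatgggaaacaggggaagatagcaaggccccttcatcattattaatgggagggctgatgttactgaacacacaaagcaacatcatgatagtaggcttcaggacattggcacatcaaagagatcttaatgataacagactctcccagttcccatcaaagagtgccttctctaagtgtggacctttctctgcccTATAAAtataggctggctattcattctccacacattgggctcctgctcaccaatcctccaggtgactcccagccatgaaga
Defa23: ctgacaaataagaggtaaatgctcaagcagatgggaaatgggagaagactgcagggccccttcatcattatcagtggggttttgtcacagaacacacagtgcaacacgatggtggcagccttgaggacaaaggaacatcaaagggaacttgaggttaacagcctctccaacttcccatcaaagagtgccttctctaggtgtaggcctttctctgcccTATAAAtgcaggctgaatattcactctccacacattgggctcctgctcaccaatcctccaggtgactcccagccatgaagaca
The sequences were 83% identical after global alignment, and those of Defa22 and Defa31 were 100% identical to Defa21 and Defa23 respectively. TATAAA on either strand was found in 15 of 16 alpha defensin promoters and in 13.6% of all 32851 promoters of the same length, and CTTTGAT on either strand in 13 of 16 and in 3.73%. Such a match describes letters in the window only. Over the 479 symbol combinations with at least 2 such promoters, the median identity was 67.2%. It was 84.7% for detoxification enzymes, 83.3% for germline families and 57.8% for ribosomal protein genes. The 254 combinations of neighbours within 1 Mb had a median of 71.7%, and the 62 combinations spread over different chromosomes a median of 58.3%.

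A detection floor was set on each array at the 95th percentile of 1210 probe sets of single chemosensory receptor genes, on the assumption that the tissue does not express most of them. The floors were log2 4.08 on input, 5.26 on IgG, 4.74 on Msi1 and 5.17 on hnRNP. Above them were 812 of the 1321 probe sets (61.5%) on input, 395 (29.9%) on IgG, 606 (45.9%) on Msi1 and 448 (33.9%) on hnRNP, against 59.0%, 27.5%, 47.5% and 32.3% of single-symbol probe sets. On at least 1 array 904 passed the floor, on all 4 arrays 278 did, and 417 passed on none. Of 13 epithelial marker genes with a single symbol, 13 were above the floor on input, 10 on IgG, 12 on Msi1 and 8 on hnRNP. Of 7 leukocyte markers, 6 passed on input, 2 on IgG, 1 on Msi1 and 2 on hnRNP, and of 8 stromal, muscle and vessel markers 3 passed on input, 5 on IgG, 6 on Msi1 and 5 on hnRNP. The part of other cell types in the results was not tested.

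In Msi1 against IgG, 662 of the shared probe sets were above the floor on at least 1 of both arrays and were compared. At least 2-fold higher with Msi1 were 179 (27.0%), against 21.5% of all probe sets compared and 19.8% of single-symbol probe sets. At least 2-fold lower were 80 (12.1%), against 11.3% of all and 7.04% of single-symbol probe sets. The median difference was log2 0.20, against 0.06 over all, and it turned to -0.16 over probe sets above the floor on both arrays and to -0.11 with no floor. Higher calls made up 69.1% of the calls, against 65.6% over all probe sets and 73.8% over single-symbol ones. After quantile normalization the share in the shared probe sets was 56.1%, and the share over all probe sets was not computed at this scaling. With the dimmer value raised to its floor, 114 of 662 stayed at least 2-fold higher and 64 lower, against 2005 and 1240 of 16652 over all probe sets. When probe sets with the same symbols were averaged, 78 of 366 combinations (21.3%) were at least 2-fold higher and 20 (5.46%) lower. All probe sets were not averaged in this way, so these shares have no matching background. Above the floor on both arrays, 54 of 339 were higher and 40 lower. Over all probe sets, 7757 were above the floor on both arrays. Of the 179 higher calls, 125 had IgG under its floor, against 2894 of 3579 over all probe sets. In each set the remaining higher calls were above the floor on both arrays. The lower calls of all probe sets were not split in this way.

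**Figure D1:**
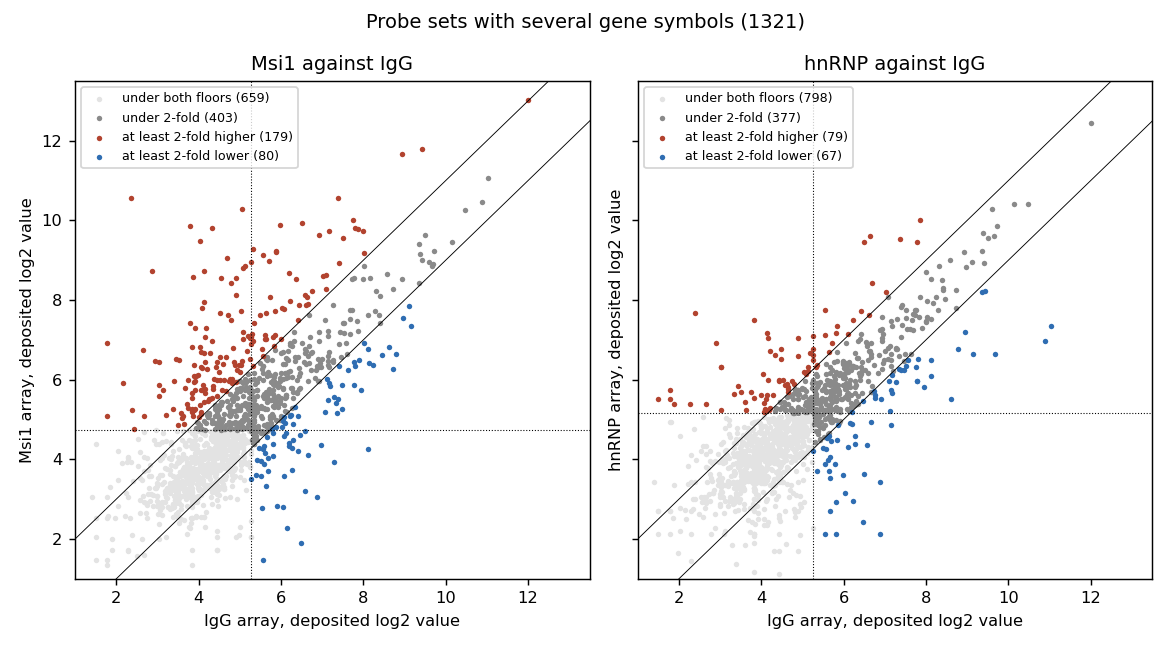
Deposited log2 values of the 1321 probe sets on the IgG array (x axis) against the Msi1 array (left) or the hnRNP array (right), with 1 point per probe set, 2-fold limits as solid lines and the detection floors dotted. At least 2-fold higher were 179 probe sets with Msi1 and 79 with hnRNP, and 80 and 67 were lower.

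The classes differed in these shares. Copies of translation, glycolysis and housekeeping genes were higher with Msi1 in 28 of 61 probe sets and lower in 6, with a median of log2 0.88. Named genes listed with predicted genes or clones were higher in 30 of 81 and lower in 2 (median 0.69). Zinc finger genes were higher in 5 of 12 and lower in 1. Ribosomal protein genes, higher in 39 of 137 and lower in 23, had a median of 0.19. Germline and X- or Y-linked families were higher in 11 of 49 and lower in 13 (median -0.34), and lists of predicted genes only were higher in 5 of 38 and lower in 10 (median -0.59). The floor was set on single-symbol chemosensory receptor probe sets, so counts for receptor lists are not independent of it. Lists holding a chemosensory receptor were above the floor in 21 of 153 probe sets, of which 1 was higher and 1 lower. The higher one, 10375515, lists Ifi47 beside Olfr56, and with IgG raised to its floor its fold was 0.76. With 1 array per group these are descriptions of the 2 arrays. Probe sets that repeat a symbol list are not independent: the 91 housekeeping probe sets hold 35 different lists, and the 201 ribosomal ones 47.

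**Figure D2:**
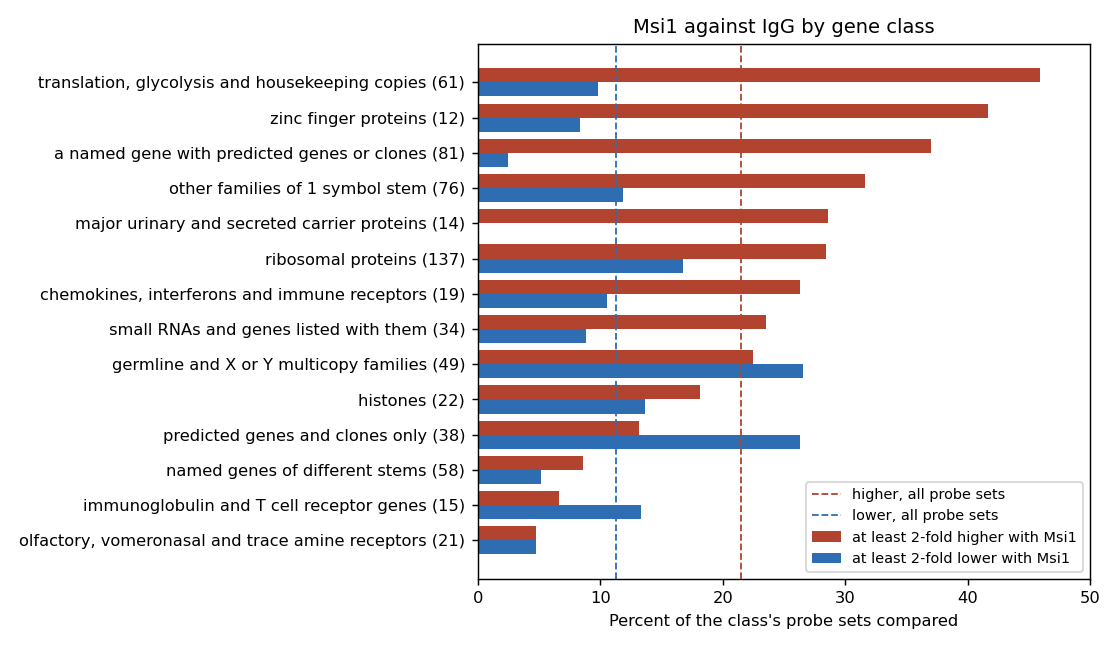
Percent of probe sets at least 2-fold higher (red) or lower (blue) with Msi1 than with IgG, for classes with at least 12 probe sets compared (number in parentheses), with dashed lines at the shares of all probe sets, 21.5% and 11.3%. The housekeeping copies reach the highest share (28 of 61) and the chemosensory receptors the lowest (1 of 21). The floor was itself set on single-symbol receptor probe sets, so the receptor share is not independent of it.

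The shares also differed by chromosomal layout, against 21.5% higher and 11.3% lower over all probe sets. Lists spread over different chromosomes were higher with Msi1 in 111 of 307 (36.2%) and lower in 34 (11.1%), with a median of log2 0.53. Neighbours within 1 Mb were higher in 43 of 195 (22.1%) and lower in 22 (median 0.05). Genes further apart on 1 chromosome were higher in 18 of 96 and lower in 20 (20.8%, median -0.20). The first group also had the highest median input, 6.69, against 3.95 and 4.11. Layout also overlaps with class: of the 462 lists over different chromosomes, 197 were ribosomal protein genes, 80 housekeeping copies and 61 named genes with predicted ones. Whether input level, class or layout goes with the difference was not tested. Here too, probe sets that repeat a symbol list are not independent.

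The largest difference was in probe sets listing Ptp4a1, a protein tyrosine phosphatase of the PRL family, with predicted genes Gm13363 and Gm8783. Probe set 10353707 read 6.94 on input, 2.35 on IgG, 10.56 on Msi1 and 3.02 on hnRNP. Its Msi1 value stood above the other 3, log2 8.21 above IgG, which is at least 39.2-fold when IgG is raised to its floor. All folds written "at least" were computed this way. Probe set 10469575, with the same symbols, read 8.99, 3.78, 9.86 and 3.45 in the same order and was at least 24.1-fold higher with Msi1. The third, 10467489, read 9.66, 5.98, 9.90 and 3.60, a 15.1-fold difference with both values above their floors. These 3 probe sets were above the floor on input and Msi1, and under it on hnRNP.

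Other named genes listed with predicted genes gave similar profiles. Probe set 10566571 of Gvin1, an interferon-induced very large GTPase, and 4 predicted genes read 7.48 on input, 2.86 on IgG, 8.74 on Msi1 and 2.28 on hnRNP (at least 11.1-fold over IgG). Gvin1 also shows the opposite: probe set 10566574, listing Gm4070 and Gvin1, read 5.40, 7.90, 6.48 and 7.29, which was 2.67-fold lower with Msi1. Cdv3, a conserved protein of unclear function, with Gm13238 in probe set 10510219, read 10.07, 4.03, 9.47 and 6.15 (at least 18.5-fold). The single-symbol probe set of Cdv3 read 8.96, 8.38, 8.97 and 8.76, a difference of 0.59 in Msi1 against IgG.

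H3f3b encodes histone variant H3.3, deposited outside replication. With Gm6485, probe set 10393058 read 8.96 on input, 5.05 on IgG, 10.30 on Msi1 and 4.06 on hnRNP, at least 32.7-fold higher with Msi1 than with IgG. A second probe set with these symbols, 10500896, read 10.72, 7.10, 8.62 and 5.98 and was 2.86-fold higher. Both were higher with Msi1 than with IgG or hnRNP. The replication-dependent histone lists described next did not share this profile. The brightest, 10494405, which lists 12 H3 genes, read 12.16, 7.68, 7.53 and 7.24, so that its antibody arrays were within 0.44 of each other. Probe set 10403948, listing H2B genes and H4bc24, read 8.54, 8.73, 6.27 and 7.80, 5.50-fold lower with Msi1 than with IgG. The single-symbol probe set of H2bc4, a gene on that list, read 9.49, 3.48, 9.13 and 3.08, with IgG under its floor. Its Msi1 minus IgG difference was 5.65, and that of the other single-symbol probe sets of the list ran from -1.16 to -0.003. Across all 22 shared histone probe sets compared, 4 were higher and 3 lower.

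Several translation genes were among the highest. Eef1a1, the elongation factor that carries aminoacyl-tRNA to the ribosome, is listed with Mir703 and D630045J12Rik on probe set 10448182, which read 6.95 on input, 4.32 on IgG, 9.80 on Msi1 and 3.35 on hnRNP. That was at least 23.2-fold higher with Msi1. The single-symbol probe set of Eef1a1 read 12.29, 6.73, 9.17 and 6.37, so Msi1 stood above the other antibodies there too, by 2.43 over IgG. Eif3j1 and Eif3j2 encode a subunit of initiation factor 3. Their probe set 10458680 read 6.38, 4.70, 9.07 and 3.22 (at least 13.9-fold), and 10475405 read 7.67, 5.70, 8.99 and 4.95. Npm1, a nucleolar chaperone of ribosome assembly, read 8.02, 3.86, 8.59 and 4.52 on probe set 10363178, listed with Gm15484 (at least 10.03-fold, with IgG raised to its floor). Its single-symbol probe set read 8.08, 3.34, 3.84 and 3.55, under the floor on every antibody array.

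Messages of hnRNP proteins were themselves among the shared probe sets. The 4 probe sets of Hnrnpa1 with Hnrnpa1l2-ps2, Gm10052 and Gm5643 were more than 2-fold higher with Msi1 than with IgG in the deposited values. IgG was above its floor on 1 of them, and with IgG raised to the floor 3 of the 4 stayed past 2-fold. Probe set 10597969 read 8.39, 4.80, 8.43 and 5.90 and was at least 8.98-fold higher. The 3 compared probe sets of Hnrnpa3 with Gm6793 were each at least 2.26-fold higher.

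Genes of general function followed. Morf4l1, a chromatin-associated protein, was read with Morf4l1-ps1 on probe set 10463153 at 8.25, 4.55, 8.56 and 4.61 (at least 9.82-fold), and on 10454099 at 9.86, 7.38, 10.57 and 9.54. The second was higher than IgG with both antibodies, by 3.19 with Msi1 and 2.16 with hnRNP. Pdcd5, a protein linked to apoptosis, with Pdcd5-ps on 10562491, read 8.96, 5.31, 9.29 and 5.09, a 15.7-fold difference between Msi1 and IgG above both floors. Oaz1, an inhibitor of polyamine synthesis, was higher on both of its probe sets with Oaz1-ps, at least 5.31-fold on 10448089 and at least 1.56-fold on 10364909.

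**Figure D3:**
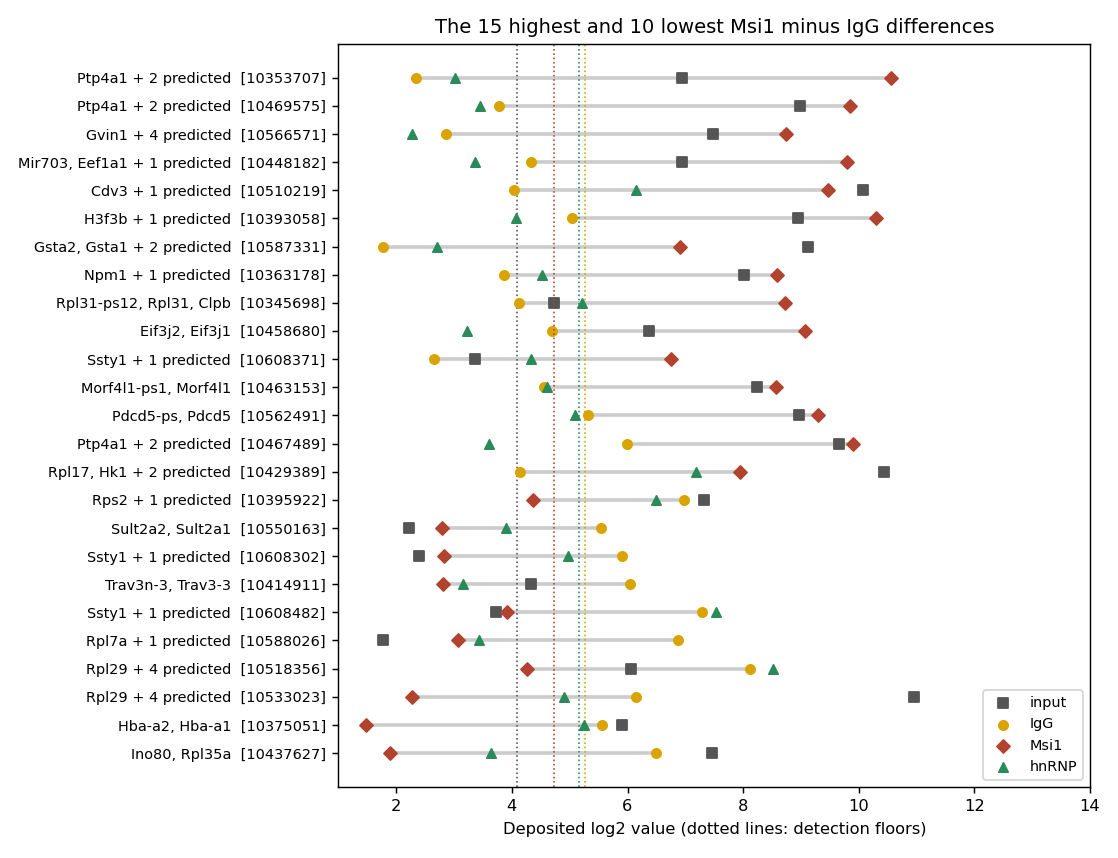
Deposited log2 values on input (squares), IgG (circles), Msi1 (diamonds) and hnRNP (triangles) for the 15 probe sets with the highest and the 10 with the lowest Msi1 minus IgG difference among those that name a gene other than predicted or receptor genes (probe set number in brackets). Probe sets above the floor on the Msi1 or the IgG array were ranked on deposited values. Grey bars join IgG and Msi1, and dotted lines mark the floors of the 4 arrays. In the upper 15 Msi1 is to the right of IgG, from 8.21 down to 3.82, and in the lower 10 it is to the left, down to -4.60.

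Ribosomal protein genes appeared at both ends. Rpl31 with Clpb and Rpl31-ps12 on probe set 10345698 read 4.72 on input, 4.12 on IgG, 8.72 on Msi1 and 5.22 on hnRNP (at least 11.0-fold). Another probe set with these symbols, 10500009, read 10.20, 3.65, 3.80 and 3.56, above the floor on input only. Rpl35a with Ino80 on 10437627 read 7.46, 6.50, 1.89 and 3.64, which was at least 3.39-fold lower with Msi1 than with IgG. Rpl29 with 4 predicted genes or clones read 6.06, 8.12, 4.26 and 8.52 on 10518356, at least 10.4-fold lower. On 10476441, with 5 of them, it read 4.02, 3.03, 6.45 and 6.32, at least 2.28-fold higher, so that 2 lists naming Rpl29 went in opposite directions. Rps26 with Gm6654 on 10549375 read 12.14, 5.57, 9.13 and 5.51, an 11.7-fold difference, while 10373498 with the same symbols read 11.28, 10.15, 9.47 and 10.41.

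Defensins and small proline-rich proteins were bright on input. Probe set 10570651, listing Defa21, Defa22, Defa23 and Defa31, read 12.92 on input, 8.94 on IgG, 11.67 on Msi1 and 7.19 on hnRNP, a 6.64-fold difference between Msi1 and IgG. Probe set 10570700, with 8 symbols including Defa3 and Defa17, read 11.05, 9.42, 11.78 and 8.93, a 5.15-fold difference, and 10570671, with 9 symbols, read 11.36, 7.51, 9.56 and 6.33. All 3 had Msi1 above and hnRNP below IgG. The other 2 compared defensin probe sets, 10570663 and 10570723, had differences of -0.82 and 0.44, and their symbols are those of 10570700. Sprr2a1, Sprr2a2, Sprr2a3 and Sprr2b encode cornified-envelope proteins that the gut also makes. Their probe set 10493850 read 12.34, 7.81, 9.80 and 6.52, and 10493858, with Sprr2a1 and Sprr2a3, read 11.15, 7.99, 8.52 and 7.47.

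Among detoxification enzymes, Gsta1 and Gsta2 (glutathione transferases) shared 3 probe sets with Gm3776 and Gm10639. Probe set 10587331 read 9.12, 1.78, 6.91 and 2.71, at least 3.13-fold higher with Msi1 than with IgG, while 10595148 read 8.49, 5.35, 5.48 and 5.10. The third, 10587339, read 6.12, 3.59, 4.48 and 5.43 and was above the floor on input and hnRNP. The Cyp3a oxidases (Cyp3a41a, Cyp3a41b and Cyp3a44 on 10535669) read 8.41, 6.27, 4.28 and 5.97, with Msi1 at least 2.90-fold lower than IgG. The Ugt1a list of 8 isoforms, which share their 3′ exons at 1 locus, read 7.92, 4.76, 5.65 and 4.87, with IgG and hnRNP under their floors. Sult2a1 and Sult2a2, sulfotransferases, read 2.21, 5.54, 2.78 and 3.89, above the floor on IgG only.

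Among immune genes, the classical MHC class I genes H2-K1 and H2-D1 read 9.79, 5.32, 6.96 and 5.64 on 10450075 and 9.89, 6.04, 6.38 and 5.77 on 10444780, with Msi1 3.11-fold and 1.27-fold over IgG. Btnl4 and Btnl6, butyrophilin-like genes, read 7.62, 5.31, 7.16 and 5.19 on 10450167. Irgm2 and Igtp, interferon-induced GTPases, read 6.16, 4.53, 5.99 and 4.94. T cell receptor gamma segments Trgv2, Trgv4 and Trgv6 read 8.17, 3.50, 3.93 and 3.86, above the floor on input only. Of 4 probe sets listing Ifnz with 5 predicted genes, 10505845 read 8.69, 4.90, 8.13 and 7.05. Of the other 3, the 2 that were compared had Msi1 minus IgG of -0.22 and -0.45, and 1 was under the floor on both arrays. The globins Hba-a1 and Hba-a2 read 5.90, 5.56, 1.47 and 5.25, where the single-symbol red cell marker found was under the floor on all 4 arrays.

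The probe sets listing small RNAs included the brightest of all. Rn7s1 and Rn7s2, neighbouring genes for the RNA of the signal recognition particle, read 14.32 on input, 12.004 on IgG, 13.02 on Msi1 and 12.45 on hnRNP. The Rnu2-10 and Rdm1 probe sets differed among themselves: 10391488 read 10.49, 7.997, 9.74 and 8.69, 10603736 read 9.19, 5.72, 8.07 and 5.01, and 10578688 read 8.97, 6.58, 4.70 and 4.35. Rpl37a with Mir682 read 9.20, 7.27, 7.87 and 5.94 on 10347273 and 7.11, 5.25, 7.05 and 2.27 on 10406250. Akt1s1 with Mir707 read 4.98, 4.34, 5.84 and 4.48, and Dnaja1 with Mir207 read 8.12, 8.58, 8.65 and 9.01. The let-7 lists were higher on the antibody arrays than on input: Lncppara with Mirlet7c-2 read 4.02, 6.66, 5.97 and 6.58, and with Mirlet7b 3.17, 5.84, 5.57 and 5.25. Msi1 was not above IgG on these 2 probe sets. Malat1, a nuclear non-coding RNA, with Ramp2 on 10598069, read 13.68, 11.03, 11.06 and 7.36. Its single-symbol probe set read 9.43, 5.99, 9.82 and 7.60, a difference of 3.83 in Msi1 against IgG where the shared probe set differed by 0.03.

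In hnRNP against IgG, 523 shared probe sets were compared. At least 2-fold higher with hnRNP were 79 (15.1%), against 11.0% of all probe sets and 6.59% of single-symbol ones, and 67 (12.8%) were lower, against 8.99% and 4.76%. The median difference was 0.04, and -0.10 over probe sets above the floor on both arrays. Probe sets without any symbol were called more often in both directions, 19.5% and 17.1%. With the dimmer value at its floor 38 were higher and 44 lower, against 553 and 491 of 13094 over all probe sets. Averaged by symbols, 22 of 261 combinations (8.43%) were higher and 24 (9.20%) lower. All probe sets were not averaged, so these shares too have no matching background. Ribosomal protein genes were higher in 22 and lower in 22 of 118.

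The highest with hnRNP listed Hmgb1, a chromatin protein, with Hmgb1-rs17, Gm5176, 4932431P20Rik and Gm12568. Probe set 10542038 read 5.12 on input, 2.38 on IgG, 5.23 on Msi1 and 7.67 on hnRNP, so hnRNP was at least 5.29-fold over IgG. Probe set 10565589 read 4.85, 2.91, 4.47 and 6.92 (at least 3.15-fold). Another of the same symbols, 10424413, read 5.03, 9.43, 9.01 and 8.23, a 2.30-fold difference the other way. The single-symbol probe sets of Hmgb1 and Hmgb1-rs17 were under the floor on every array. Krtap2-4, a hair keratin-associated protein, read 6.70, 3.83, 6.83 and 7.49 on 10390913, at least 4.67-fold over IgG with hnRNP, and 6.50, 7.17, 6.70 and 7.36 on 10390917. Xlr4a, Xlr4b and Xlr4c, X-linked lymphocyte-regulated genes, read 6.04, 7.87, 9.79 and 10.02 on 10600131, where both antibodies were above IgG, and 2.66, 6.27, 5.79 and 5.82 on 10604984. Among lists lower with hnRNP was the mitochondrial ATP6 with Gm10925, at 12.16, 10.89, 10.46 and 6.98, a difference of -3.91 from IgG. Malat1 with Ramp2 on 10598069 was 12.7-fold lower. The single-symbol probe set of Malat1 went the other way, with hnRNP 1.61 above IgG, and that of Ramp2 differed by 0.12.

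Snord116 small nucleolar RNAs, which belong to the C/D box class, were chosen for a closer look after their values were seen. Of 7 probe sets that list Snord116l1, Snord116l2 and Gm26504, 6 were compared and 4 of these were at least 2-fold higher with hnRNP than with IgG, with a median of log2 1.34 and a range of 0.15 to 1.83. In Msi1 against IgG none of the 6 compared reached 2-fold, their range being -0.51 to 0.39. The highest, 10564183, read 5.17 on input, 5.26 on IgG, 4.97 on Msi1 and 7.09 on hnRNP, and 10564159 read 4.83, 5.72, 6.12 and 6.92. The probe set not compared, 10564161, read 4.72, 5.26, 2.06 and 4.94. These 7 probe sets list the same genes and are not independent.

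In Msi1 against hnRNP, 677 were compared. Msi1 was at least 2-fold higher in 168 (24.8%), against 19.9% of all probe sets and 18.6% of single-symbol ones, and lower in 87 (12.9%), against 11.7% and 7.94%, with a median of 0.16. That median turned to -0.10 over probe sets above the floor on both arrays and to -0.087 with no floor. With the dimmer value at its floor, 115 were higher and 58 lower, against 2026 and 1176 of 17063 over all probe sets. Both comparisons with IgG and this one share arrays and are not independent. Ptp4a1 (10353707) had the largest such fold of the probe sets named by rule, at least 41.96-fold higher with Msi1 than with hnRNP. In the other direction, among the probe sets named by rule and with Msi1 raised to its floor, Rpl29 10518356 was at least 13.8-fold and Ssty1 10608482 at least 6.91-fold higher with hnRNP than with Msi1. The homeobox genes Cphx1, Cphx2 and Cphx3, at 2.46, 5.26, 2.06 and 6.48, were at least 3.36-fold higher with hnRNP.

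Against input, most differences were negative. Of 868 probe sets, Msi1 was at least 2-fold higher in 110 (12.7%), against 16.0% of all, and lower in 395 (45.5%), against 36.7%, with a median of -0.75. IgG was higher in 117 of 851 (13.7%), against 19.7% of all, and lower in 448 (52.6%), against 43.1%, with a median of -1.13. Over all probe sets, higher calls were 30.4% of the Msi1 calls and 31.3% of the IgG calls. In the shared probe sets they were 21.8% and 20.7%. After quantile normalization the shares in the shared probe sets were 36.0% and 33.0%, and after loess centring 38.0% and 42.2%. The shares over all probe sets were not computed at these scalings. Ribosomal protein genes were at least 2-fold lower with Msi1 than on input in 135 of 171. Rpl39 with Gm32211 read 12.08 on input, 5.01 on IgG, 4.34 on Msi1 and 4.43 on hnRNP on 10604072, at least 163-fold lower with Msi1 than on input, and 11.13, 3.83, 1.72 and 1.18 on 10427266. On both, the antibody arrays were under their floors. Camkv with Rpl21 on 10406499 was higher on each antibody array than on input, which was under its floor, at 1.65, 7.48, 5.86 and 6.25.

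Probe sets that list the same genes often gave different values. There were 240 symbol combinations on more than 1 probe set, covering 775 of the 1321. In 121 combinations at least 2 probe sets were compared in Msi1 against IgG, and the median range within a combination was log2 1.71. These ranges and counts use the deposited values, where 1 of both arrays can be under its floor. In 16 of the 121 all compared probe sets were at least 2-fold higher, in 0 all were lower, in 28 none passed 2-fold and in 19 (15.7%) at least 1 was higher and another lower. Single-symbol genes with several compared probe sets numbered 480, had a median range of 1.22 and had both directions in 29 (6.04%). Restricted to exactly 2 compared probe sets, both directions occurred in 4 of 72 combinations and 6 of 365 single-symbol genes, with median ranges of 1.27 and 1.01.

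The 5-symbol list of Hmgb1 had 19 probe sets, of which 6 of 11 compared were higher with Msi1 and 2 lower, from -1.66 to 3.33. Ssty1, a Y-linked spermatid gene, with Gm20831 also had 19, of which 8 were compared: 2 were higher and 4 lower, from -3.37 to 4.09. Rps2 with Gm10653 had 3 higher and 3 lower of 13. For Rpl21 with Camkv and Cep170, 5 of 14 were higher and 1 lower, and for Rpl7a with Gm5766, 1 of 9 was higher and 3 lower. All compared probe sets were higher for Hnrnpa1 (4), Ptp4a1 with both predicted genes (3), Hnrnpa3 (3) and Rpl41 with Fcgbp and Gm31005 (2, at 2.26 and 3.66), among others.

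**Figure D4:**
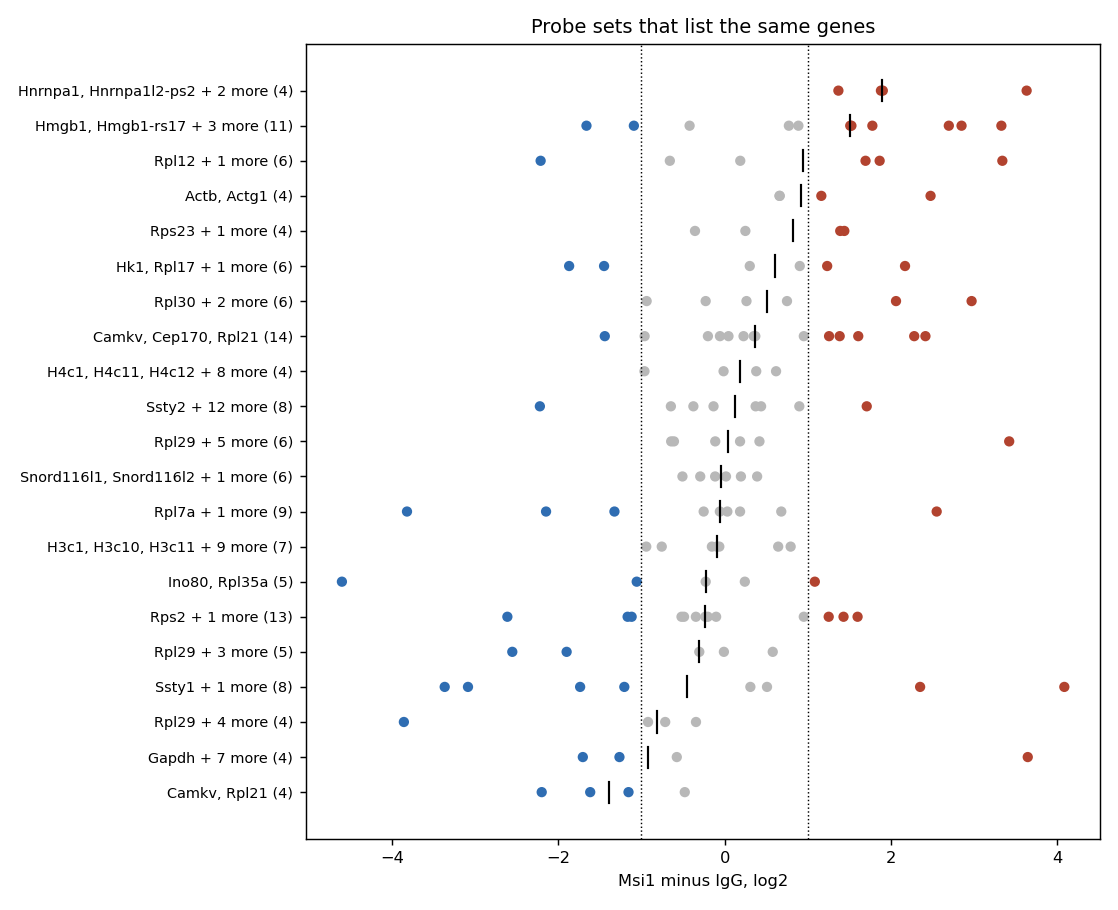
Msi1 minus IgG, log2, for the 21 symbol combinations with at least 4 compared probe sets (number in parentheses), with 1 point per probe set, red at least 2-fold higher, blue at least 2-fold lower, and black ticks at the medians. The 4 Hnrnpa1 probe sets all lie above 1, while the 8 of Ssty1 with Gm20831 run from -3.37 to 4.09.

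Genes in the lists often had a probe set of their own. This held for 682 of the 1321, giving 1551 pairs of a shared and a single-symbol probe set. Across these pairs, which reuse probe sets and are not independent, input values had a Pearson correlation of 0.49. In the 400 pairs compared on both sides, Msi1 minus IgG had a correlation of 0.12 and a median absolute difference of 0.96. Both were at least 2-fold higher in 16 pairs and both lower in 12, while in 11 the shared one was higher and the single one lower and in 4 the reverse.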

How the data were processed

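The deposited table gives the authors' log2 values, with a single summary per probe set on each array. Base 2 was inferred from their range, 1.07 to 14.3. Per the submitters' processing notes, affy was used (version not listed). How background was corrected, how arrays were normalized and which build was used: not given in the sources used here. Samples were grouped by the antibody in the labels, with 1 array each of input, IgG, Msi1 and hnRNP.

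Probe sets with several symbols came from the platform's probe-to-gene table, and symbols were matched to RefSeq (GRCm38.p6). Classes were set by symbol. A probe set entered a comparison if either array was above its floor, the threshold was 2-fold, and a dimmer value under its floor was raised to it before a fold marked "at least" was computed. Genes were named by a rule over probe sets with a symbol that is neither predicted nor a receptor: the extremes of each comparison (for Msi1 against IgG, 15 at the top and 10 at the bottom; elsewhere 8 and 5), the 5 brightest per array, and the extremes and the brightest of each class. Outside that rule, and chosen after their values were seen, were probe sets of Rpl37a, Irgm2, Rnu2-10 (10391488), Lncppara, Btnl4, Eif3j1 (10475405), Sprr2a3 (10493858), Dnaja1, Cyp3a41a, Rps26 (10549375), Akt1s1, Snord116l1, Defa33 (10570671), Defa27 (10570723), Gsta1 (10587339 and 10595148), Hnrnpa1, Hnrnpa3, Oaz1 and Rpl41, and the symbol combinations with most probe sets. The members and lists were chosen with earlier results of these data known. Promoters were aligned globally with Biopython 1.88 in place of protein identity, which was planned and not run, a choice made after the data were seen. Alternatives covered scaling (median, quantile, loess), the floor, the threshold and averaging by symbols. Counting was tested on simulated data. Python 3.11.15, pandas 2.3.3, numpy 2.4.6, statsmodels 0.14.6 and matplotlib 3.10.9 were used.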

Additional observations from a re-analysis of the deposited data

How the results depend on the processing

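No paired analysis was possible because each group has 1 array. No replicate could be left out. Of 170 summary values under the alternatives, 69 moved by over 1.5 times (counts) or by more than 0.1 (medians), 101 did not, and the cause was not tested. The planned protein identity was not run. In Msi1 against IgG, the number higher was 54 with detection on both arrays, 115 with a 3-fold threshold and 78 with averaging by symbols. In Msi1 against IgG, the number lower was 151 with quantile normalization, 171 with no floor, 40 with detection on both arrays, 151 with a 1.5-fold threshold, 46 with a 3-fold threshold and 20 with averaging by symbols. In Msi1 against IgG, the median difference was 0.33 with median centring, 0.093 with quantile normalization, 0.42 with a floor at the 99th percentile, -0.11 with no floor and -0.16 with detection on both arrays. In hnRNP against IgG, the number higher was 131 with no floor, 19 with detection on both arrays, 125 with a 1.5-fold threshold, 38 with a 3-fold threshold and 22 with averaging by symbols. In hnRNP against IgG, the number lower was 102 with quantile normalization, 134 with no floor, 33 with detection on both arrays, 119 with a 1.5-fold threshold, 37 with a 3-fold threshold and 24 with averaging by symbols. In hnRNP against IgG, the median difference was -0.10 with detection on both arrays. In Msi1 against hnRNP, the number higher was 58 with detection on both arrays and 83 with averaging by symbols. In Msi1 against hnRNP, the number lower was 142 with quantile normalization, 57 with a floor at the 99th percentile, 157 with no floor, 42 with detection on both arrays, 162 with a 1.5-fold threshold, 33 with a 3-fold threshold and 24 with averaging by symbols. In Msi1 against hnRNP, the median difference was 0.28 with median centring, 0.31 with loess centring, 0.37 with a floor at the 99th percentile, -0.087 with no floor and -0.10 with detection on both arrays. In Msi1 against input, the number higher was 177 with loess centring, 213 with no floor, 61 with detection on both arrays, 63 with a 3-fold threshold and 58 with averaging by symbols. In Msi1 against input, the number lower was 246 with detection on both arrays and 195 with averaging by symbols. In Msi1 against input, the median difference was -1.005 with median centring, -0.27 with quantile normalization, -0.28 with loess centring, -1.22 with a floor at the 99th percentile, -0.071 with no floor, -0.57 with averaging by symbols and -0.89 with leaving out receptors. In IgG against input, the number higher was 176 with quantile normalization, 215 with loess centring, 74 with a floor at the 99th percentile, 326 with no floor and 48 with averaging by symbols. In IgG against input, the number lower was 294 with loess centring, 163 with detection on both arrays and 226 with averaging by symbols. In IgG against input, the median difference was -1.51 with median centring, -0.58 with quantile normalization, -0.33 with loess centring, -1.68 with a floor at the 99th percentile, -0.012 with no floor, -0.62 with detection on both arrays and -0.91 with averaging by symbols. For the 107 named probe sets there were 542 values. A call here needed a 2-fold difference and a value above the Msi1 or the IgG floor. No call reversed and 6 fell under 2-fold. Another 37 values were past 2-fold where the deposited value was no call. Some of these were past 2-fold as deposited but under both floors, such as Rpl39 with Gm32211 on 10427266 (-2.11). In 3 uncalled values the sign changed. Malat1 with Ramp2 was -0.72 after quantile normalization and -0.062 after loess centring, and H2-T23 with H2-T-ps was 0.012 after median centring. Only the median, quantile and loess scalings could change these values, because the floor settings left each value as deposited. Of the named probe sets, 39 were above the floor on both the Msi1 and the IgG array. At the 99th percentile floor, 32 were above it on neither of these arrays.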
